A study of Homo sapiens with 6 samples.

Results

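The genes described here are the 10 that encode NF-kB subunits (RELA, RELB, NFKB1, NFKB2), the IkB inhibitors that hold the subunits back (NFKBIA, NFKBIB, NFKBIE), their nuclear relatives NFKBIZ and BCL3, and the feedback inhibitor TNFAIP3. They are 10 of the 28395 Entrez genes in the count table, found by symbol. The cells were TC28a2, a line of human chondrocytes that has been immortalised, transfected 48 hours before RNA was taken, with a control vector (3 libraries) or a vector for overexpression of FAP, a membrane serine protease (3 libraries). Both groups were transfected, and there was no untransfected group. Neither the promoter of the vector nor the share of cells that took it up is given in the sources used here. Levels are CPM, gene counts relative to the size of their library after scaling by TMM (a correction for library composition), and differences are log2 fold changes of FAP minus control vector from edgeR. The members were chosen by function with their measured differences between FAP and control libraries already known, BCL3 and NFKBIE having passed an adjusted p under 0.05 there, so these differences are given as a description with no test.

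NF-kB is a family of dimeric transcription factors. RELA and RELB carry an activation domain, while the NFKB1 and NFKB2 products are precursors processed to p50 and p52, which bind DNA but do not activate by themselves. The classical inhibitors IkB alpha, beta and epsilon (NFKBIA, NFKBIB, NFKBIE) bind dimers through ankyrin repeats and keep them inactive until a kinase complex marks the inhibitor for degradation. BCL3 and NFKBIZ share the ankyrin repeats but act in the nucleus, BCL3 on p50 and p52 dimers bound to DNA. TNFAIP3 encodes A20, which edits ubiquitin chains upstream of the kinase. Several of these genes are themselves induced by NF-kB, and in cartilage the pathway is known for mediating responses to inflammatory cytokines.

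The stretches of promoter shown here carry letters of the NF-kB binding motif, a feature outside the count table that most of the members with a window share. RefSeq promoter windows (GRCh38.p14, 250 bases before to 50 after a start site) were given for 8 of the 10 genes, in 14 windows. The NF-kB consensus, a 10-base motif, was searched on both strands. In each line the 30 bases are on the strand of the gene, 5′ to 3′, and capitals mark the match.
NFKBIZ: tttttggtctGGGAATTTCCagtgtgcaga
NFKB1: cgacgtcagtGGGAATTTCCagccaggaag
NFKB2: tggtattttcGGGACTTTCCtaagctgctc
NFKBIB: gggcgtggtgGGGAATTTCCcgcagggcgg
BCL3: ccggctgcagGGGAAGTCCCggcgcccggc
The 5 genes lie on the plus strand, and their matches are at chr3:101827767-101827776, chr4:102501310-102501319, chr10:102395684-102395693, chr19:38899941-38899950 and chr19:44748710-44748719 in this order.

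For TNFAIP3 and NFKBIA the 250 bases before the start site of the window are shown, with capitals on the consensus matches. They were taken because TNFAIP3 holds a pair of matches side by side and NFKBIA is the most abundant inhibitor here. The TNFAIP3 stretch is chr6:137867009-137867258 on the plus strand, and the NFKBIA stretch is chr14:35404750-35404999 on the minus strand.
TNFAIP3: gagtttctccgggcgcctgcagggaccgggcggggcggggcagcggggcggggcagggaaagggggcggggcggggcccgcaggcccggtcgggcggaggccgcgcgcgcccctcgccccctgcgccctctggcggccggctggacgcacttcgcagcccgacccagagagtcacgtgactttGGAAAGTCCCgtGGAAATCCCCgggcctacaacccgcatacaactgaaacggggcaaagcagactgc
NFKBIA: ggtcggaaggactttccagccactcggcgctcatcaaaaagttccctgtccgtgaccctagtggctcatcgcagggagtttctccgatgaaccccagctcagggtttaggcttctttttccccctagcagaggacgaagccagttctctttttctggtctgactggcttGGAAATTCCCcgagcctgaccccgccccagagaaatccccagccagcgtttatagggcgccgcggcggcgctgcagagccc

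A consensus match lay in at least 1 window of 7 of the 8 genes. Among all 27305 genes with a window of this length, 7.09% held the consensus. Counted by window, 9 of the 14 held the consensus, against 5.91% of 35116 windows. The 2 TNFAIP3 matches begin 67 and 55 bases before the start site, and the NFKBIA match begins 81 bases before it. NFKB2 had 6 matches in 2 of its 3 windows, some of them overlapping or read on both strands. The BCL3 match begins 2 bases after the start base. The 2 RELA windows held no match to these letters. A match is a run of letters, and binding was not measured.

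**Figure D1:**
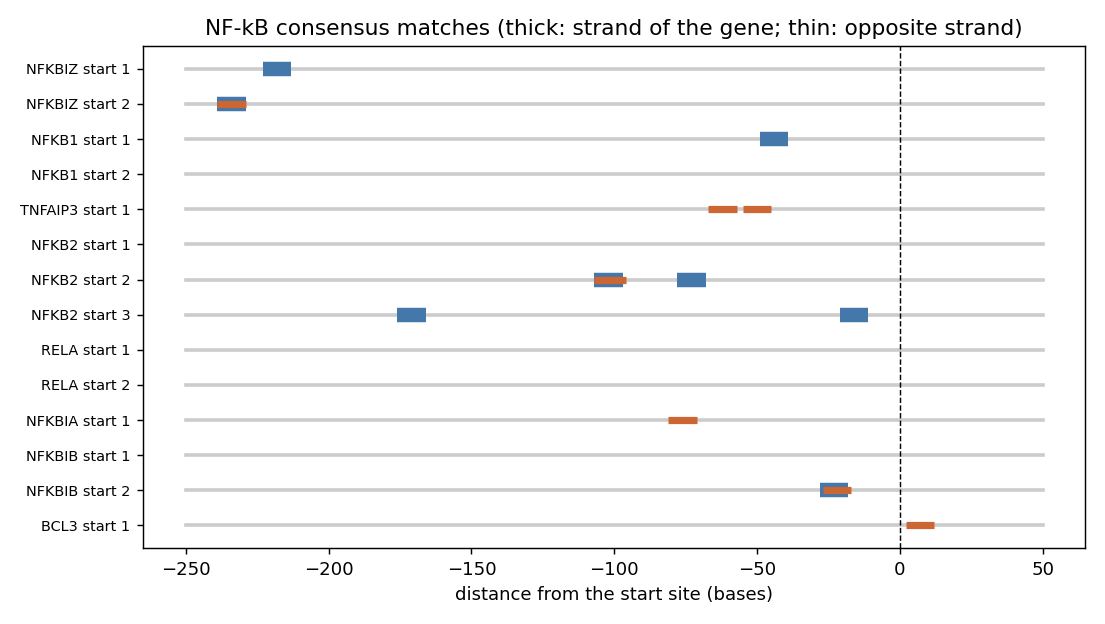
NF-kB consensus matches in the 14 RefSeq promoter windows of 8 genes, by distance from the start site in bases; each grey line is a window, thick bars are matches on the strand of the gene and thin bars on the opposite strand. RELA has no bar, and the TNFAIP3 pair lies between 67 and 45 bases before the start.

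Library totals ran from 5736056 to 13839743 counts. FAP was at 0 to 1.20 CPM in the control libraries and at 223 to 351 CPM in the FAP libraries, so all 6 matched their labels. FAP replicate 3 stood apart from the other FAP libraries by counts, the chi-square per degree of freedom being 16.2 and 15.5 against 5.21 to 6.78 for the other pairs within a group. This measure grows with depth, and by root mean square distance in log2 CPM FAP replicate 3 was at 0.521 and 0.406 from FAP replicates 1 and 2, which were at 0.432 from each other. Of 13 chondrocyte markers 1, SOX9, had enough counts to be tested, and ACAN and COL2A1 reached 15 and 4 counts in their highest library, so the defining cartilage genes were close to absent. The 9 mesenchymal markers were all tested, and of the epithelial markers KRT8 and KRT18 were abundant while EPCAM, CDH1 and KRT19 had at most 4 counts. The 9 immune markers summed to 20.4 to 22.1 CPM in controls and 19.3 to 23.4 CPM in FAP libraries, and MS4A1 had no count. Summed, the 5 endothelial markers were at 0.913 to 1.09 CPM with control vector and at 1.83 to 2.67 CPM with FAP. This difference lay mostly in PECAM1, whose mean was 0.444 CPM with control vector and 1.70 CPM with FAP, on at most 24 counts. VWF had means of 0.365 and 0.478 CPM in the same order, on at most 6 counts. KDR and TEK were not higher with FAP, and CDH5 had no count in any library. The part of these markers in the results was not tested.

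All 10 genes passed the low-count filter, which 13373 genes passed. In FAP libraries 9 had lower and 1, BCL3, had higher values than in controls, with a median log2 fold change of -0.23 against 0.00 for all genes tested. Of all genes tested, 6597 had negative and 6776 positive values. The fit called 2 of the 10, BCL3 upward and NFKBIE downward, beside 30 of all genes (0.224%), of which 13 were higher (0.0972%) and 17 lower (0.127%). Scaled by library totals alone, the split over all genes was 13 higher and 6 lower. The 3 FAP libraries lay wholly above the controls for BCL3 and wholly below them for NFKBIE, NFKBIB, NFKB2 and TNFAIP3, and the groups overlapped for the other 5. Among all genes tested, 7.96% were separated upward and 7.99% downward. Since the group was chosen with this comparison in view, nothing is read from these counts. In bulk RNA, fewer cells with a transcript and less of it per cell cannot be told apart.

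**Figure D2:**
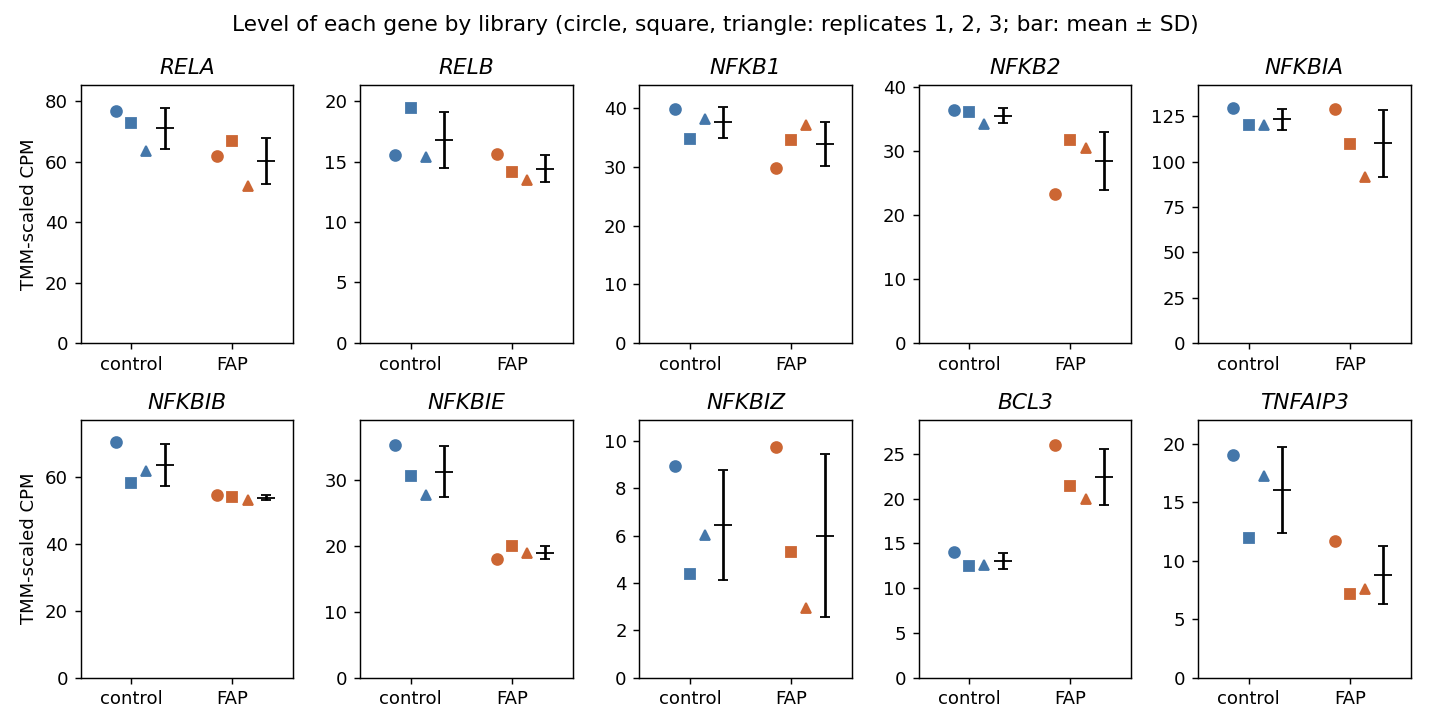
TMM-scaled CPM of the 10 genes in each library, 3 control and 3 FAP vector libraries per panel (circle, square and triangle are replicates 1, 2 and 3), with mean ± SD beside them. BCL3 sits at 12.45 to 14.1 CPM in controls and 20.01 to 26.0 CPM in FAP libraries, and NFKBIE at 27.7 to 35.4 and 18.0 to 20.04 CPM.

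BCL3, the nuclear partner of p50 and p52, was the 1 gene of the group with more transcript in FAP libraries. It had 14.1, 12.45 and 12.6 CPM in control replicates 1, 2 and 3 and 26.0, 21.4 and 20.01 CPM in FAP replicates 1, 2 and 3. The lowest FAP library was above the highest control, and FAP replicate 1 was the highest of all 6. These values rest on 77 to 159 counts per control library and 163 to 303 per FAP library. The log2 fold change was 0.78 (SE 0.16), or 1.72-fold. It ranged from 0.68 without FAP replicate 1 to 0.86 without FAP replicate 3. Without control replicates 1, 2 and 3 and FAP replicates 1 and 2 in turn the values were 0.83, 0.76, 0.76, 0.68 and 0.81. In each of these fits BCL3 was no longer among the called genes, and limma-voom did not call it either (0.76). Over all genes these fits called 4, 7, 3, 38 and 6 in the same order, and limma-voom 21, against 30 with all libraries in edgeR.

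NFKBIE encodes IkB epsilon, the classical inhibitor known for binding RELA and c-Rel dimers. Control libraries had 35.4, 30.7 and 27.7 CPM and FAP libraries 18.0, 20.04 and 18.9 CPM. The FAP values lay close together, with an SD of 1.01 CPM against 3.90 CPM in controls, and all below the lowest control. The log2 fold change was -0.70 (SE 0.14), a FAP level 0.615 times that of controls. Without control replicates 1, 2 and 3 and FAP replicates 1 and 2 in turn the values were -0.61, -0.71, -0.79, -0.67 and -0.75. NFKBIE was not called in any of these fits, nor by limma-voom (-0.67) or with library totals (-0.65). The calls over all genes in these fits are given with BCL3 above, and with library totals they were 19.

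The other classical inhibitors differed by less. NFKBIB, which encodes IkB beta, had 70.5, 58.1 and 61.9 CPM in controls and 54.6, 53.9 and 53.0 CPM with the FAP vector (log2 fold change -0.23, SE 0.11). Its FAP libraries were nearly level with each other, with a coefficient of variation of 1.48% against 10% in controls, and their highest was below the lowest control. NFKBIA, which encodes IkB alpha, the inhibitor resynthesised fastest after NF-kB is activated, had 129.9, 120.1 and 120.1 CPM in controls and 128.9, 109.7 and 91.6 CPM in FAP libraries (-0.17, SE 0.11). The groups overlapped, FAP replicate 1 being level with the highest control and FAP replicate 3 the lowest of all. Without FAP replicate 3 the NFKBIA value was -0.05, and without FAP replicate 1 it was -0.29.

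TNFAIP3, the gene of the ubiquitin-editing inhibitor A20, had the largest fold change of the 10 in size. Controls had 19.0, 11.9 and 17.25 CPM and FAP libraries 11.65, 7.13 and 7.56 CPM. The groups were separated narrowly, since FAP replicate 1 lay just under control replicate 2. The log2 fold change was -0.91 (SE 0.22), and the spread within groups was wide (coefficients of variation of 23.0% in controls and 28.4% in FAP libraries). It was not called in the edgeR fit, but was called by DESeq2 (-0.89), without the low-count filter (-0.91), without FAP replicate 1 (-1.11) and without FAP replicate 3 (-0.82). Over all genes these fits called 97, 152, 38 and 248, against 30 in the edgeR fit. NFKBIZ, the other nuclear IkB, was the least abundant member, at 8.95, 4.37 and 6.01 CPM in controls and 9.73, 5.29 and 2.96 CPM in FAP libraries. The groups overlapped fully (-0.15, SE 0.35), and the sign turned to 0.20 without FAP replicate 3. NFKBIZ shares 242 bases of its span with NXPE3 on the same strand, so its few counts (40 to 76 per library) are uncertain.

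Among the DNA-binding subunits all 4 values were negative and small. NFKB2, the p100 and p52 gene, had 36.4, 36.0 and 34.3 CPM in controls and 23.3, 31.7 and 30.5 CPM with the FAP vector (log2 fold change -0.30, SE 0.13). FAP replicate 1 was the lowest, and without it the value was -0.19. NFKB1, the p105 and p50 gene, had 39.8, 34.7 and 38.2 CPM in controls and 29.8, 34.6 and 37.1 CPM in FAP libraries (-0.14, SE 0.12). FAP replicate 3 lay within the range of the controls, and without FAP replicate 1 the NFKB1 value was -0.06. NFKB1 also overlaps the antisense gene NFKB1-AS1, which held 136 counts over the 6 libraries against 2198 for NFKB1, and whether counting used strand is not stated in the sources used here. RELA, the main activating subunit, had 76.7, 73.0 and 63.6 CPM in controls and 62.1, 66.9 and 52.0 CPM in FAP libraries (-0.23, SE 0.12). Its groups overlapped, and without FAP replicate 3 the value was -0.13. RELB, the activating subunit of the alternative pathway, had 15.5, 19.4 and 15.3 CPM in controls and 15.6, 14.1 and 13.5 CPM in FAP libraries (-0.23, SE 0.16). It rested on control replicate 2, without which the RELB value was -0.10.

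**Figure D3:**
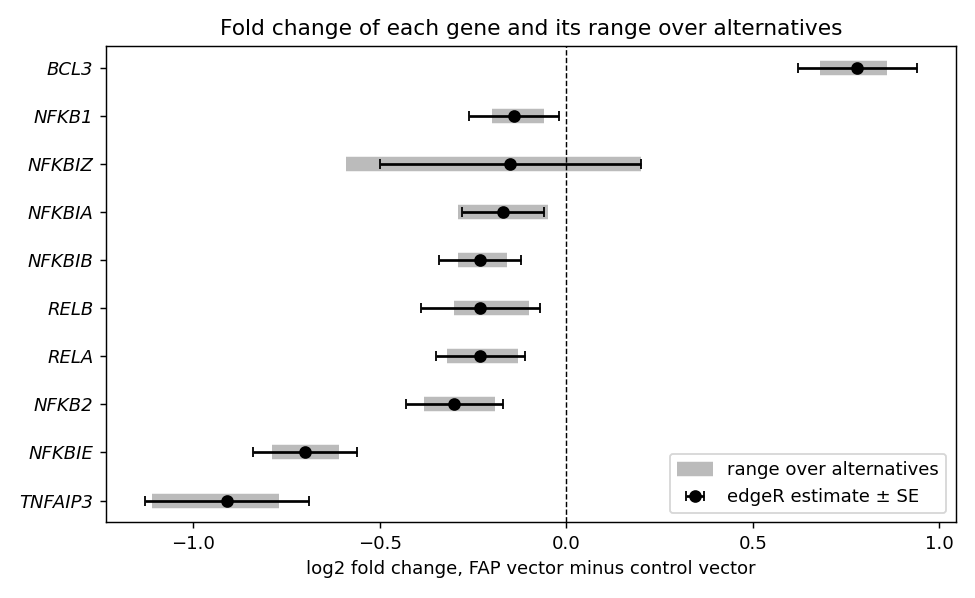
Log2 fold change of FAP minus control vector for the 10 genes (edgeR estimate ± SE, black) with the range over the alternative fits (grey). BCL3 alone lies above 0, and only NFKBIZ has a range that crosses 0 (-0.59 to 0.20).

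Ratios of counts within a library do not depend on how libraries are scaled. They are made of the same counts as the differences above, which were known when the genes were chosen, so they restate these on another scale and are no separate support. The ratio of BCL3 to NFKBIE counts was 0.397, 0.406 and 0.454 in controls and 1.44, 1.07 and 1.06 in FAP libraries. The mean of the FAP libraries was 2.84 times that of the controls, and leaving out each library in turn gave 2.54 to 2.99 times. BCL3 relative to the summed counts of the 4 subunits was 0.0810 ± 0.00404 (SD, n = 3) in controls and 0.165 ± 0.0296 in FAP libraries. Relative to NFKB1 and NFKB2 alone, the genes of its p50 and p52 partners, BCL3 was 2.07 times as high. NFKBIE relative to the 4 subunits was 0.194 ± 0.0146 in controls and 0.139 ± 0.00311 in FAP libraries, with no overlap. TNFAIP3 relative to the subunits was 0.0999 ± 0.0233 in controls and 0.0647 ± 0.0215 in FAP libraries, a mean 0.648 times as high against 0.715 times for NFKBIE, but with overlap between the groups. NFKBIB relative to the subunits was 0.394 ± 0.0336 in controls and 0.394 ± 0.0261 in FAP libraries. The subunits themselves had negative log2 fold changes in CPM (-0.14 to -0.30), like NFKBIB (-0.23), so a level ratio means that both differed alike. For the same reason BCL3 differed by more relative to the subunits (2.04 times) than in CPM (1.72-fold). NFKBIE differed by less (0.715 times, against 0.615 times in CPM). NFKBIA relative to the subunits overlapped between groups (0.767 ± 0.0290 and 0.806 ± 0.158). The 3 classical inhibitors together had 1.35 ± 0.0655 counts per subunit count in controls and 1.34 ± 0.175 in FAP libraries. Within them NFKBIE made up 15%, 14.7% and 13.2% in controls and 8.95%, 10.9% and 11.6% in FAP libraries. RELB to RELA was 0.237 ± 0.0323 in controls and 0.241 ± 0.0262 in FAP libraries.

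**Figure D4:**
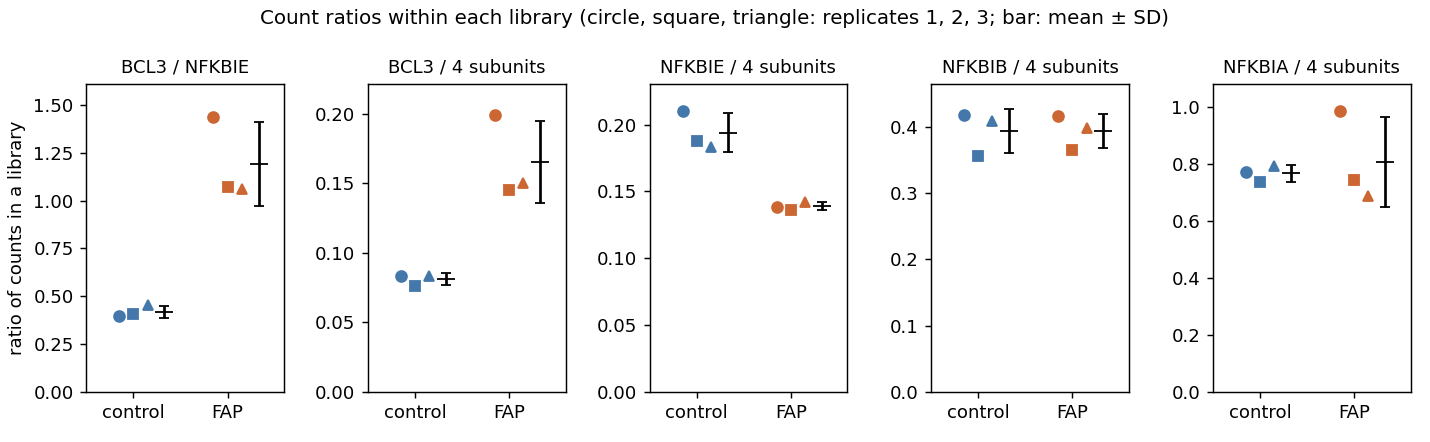
Ratios of gene counts within each library, 3 control and 3 FAP vector libraries (circle, square and triangle are replicates 1, 2 and 3; bars are mean ± SD); 4 subunits means the summed counts of RELA, RELB, NFKB1 and NFKB2. The BCL3 to NFKBIE ratio is at most 0.454 in controls and at least 1.06 in FAP libraries, while the NFKBIA and NFKBIB ratios overlap.

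The control libraries, whose levels alone were not used to choose the genes, show the make-up of the system in these cells. Per kb of the longest GENCODE transcript, NFKBIA was highest at 79.2 ± 3.62 CPM per kb, followed by NFKBIB at 28.9 ± 2.89 and RELA at 22.3 ± 2.12. NFKBIE was at 12.1 ± 1.51 CPM per kb, NFKB2 at 10.4 ± 0.329 and NFKB1 at 9.20 ± 0.636. RELB at 7.31 ± 1.01 and BCL3 at 6.40 ± 0.439 CPM per kb were the only neighbours in this order whose control ranges overlapped. TNFAIP3 followed at 3.39 ± 0.780 CPM per kb, and NFKBIZ was lowest at 1.64 ± 0.591. The ranges of NFKBIE and NFKB2 nearly touched (lowest 10.7 against highest 10.6 CPM per kb), as did those of NFKB1 and RELB. DRUG-seq as generally described reads transcript ends, for which the undivided CPM may be the closer measure, and the order changed without the division. In plain control CPM RELA (71.1 ± 6.74) was above NFKBIB (63.5 ± 6.35), NFKB1 (37.6 ± 2.60) and NFKB2 (35.6 ± 1.12) were above NFKBIE (31.3 ± 3.90), and TNFAIP3 (16.1 ± 3.69) was above BCL3 (13.0 ± 0.894). NFKBIA was highest and NFKBIZ lowest on both scales. In FAP libraries BCL3 stood 4th of the 10 per kb (11.03 ± 1.54) and 6th in plain CPM (22.5 ± 3.14), from 8th and 9th in controls. NFKBIE stood 7th on both scales, from 4th per kb and 6th in plain CPM. BCL3 was above NFKBIE per kb in 0 of 3 control and 3 of 3 FAP libraries. Unlike the control levels, these changes of place restate differences that were known when the genes were chosen, and are no separate support.

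The 10 genes lie on 7 chromosomes. BCL3 (Entrez 602, chromosome 19, 44747705 to 44760044), RELB (Entrez 5971, chromosome 19, 45001464 to 45038192) and NFKBIB (Entrez 4793, chromosome 19, 38899666 to 38908889) share an arm, and BCL3 and RELB have differences of opposite sign. NFKBIE (Entrez 4794, chromosome 6, 44258166 to 44265551) and TNFAIP3 (Entrez 7128, chromosome 6, 137866349 to 137883312), the pair with the largest negative values, lie far apart on chromosome 6. Coordinates are of GRCh38.p14. The start sites of the TNFAIP3 and BCL3 promoter windows (137867259 and 44748708) lie inside these spans, so they are not the first base of the span. 

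Genes with the pattern closest to BCL3 over the 6 libraries, among 8585 genes with at least 10 CPM, were TOR1AIP2 (Pearson r = 0.997 of log2 CPM), SLC25A1 (0.989) and RNF138 (0.986). Their log2 fold changes were 0.13, 0.43 and 0.15, all smaller than that of BCL3. Closest to NFKBIE were TMEM167A (r = 0.996), PHB2 (0.991) and OSGIN1 (0.987), with log2 fold changes of -0.12, -0.32 and -0.42. With 6 libraries in 2 groups, such values mainly find genes that differ between the groups in the same direction, and none of these 6 was called (edgeR adjusted p from 0.146 to 0.733).

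The rest of the pathway showed no called gene. Of 127 genes in 7 lists by role, 99 were tested, 51 with positive and 48 with negative values (median 0.00). Of these, edgeR, DESeq2 and limma-voom each called 0. DESeq2 gave an adjusted p for 8276 genes in all. It gave none for many of the 99, among them IL18R1, TRAF5, TNFRSF9, LIF and several other induced targets, so its 0 covers clearly fewer genes. At an unadjusted p under 0.05, 8 were higher and 1 was lower, against 4.61% higher and 5.30% lower (9.91% in all) of the genes tested. Without FAP replicate 3, 1 was called, LTBR, the lymphotoxin beta receptor of the alternative pathway (log2 fold change 0.67, edgeR adjusted p = 0.0286). Its adjusted p in the other fits ran from 0.222 to 0.793. LTBR had 11.7, 16.4 and 16.8 CPM in controls and 29.04, 20.5 and 15.4 CPM in FAP libraries, and the groups overlapped.

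Most ligand genes had too few counts to be tested. Of 13 cytokine genes, 10 failed the filter with at most 9 counts in any library, among them TNF, IL1A and IL1B (singled out after their values were seen). Of the 3 tested, TNFSF12, the TWEAK gene, had 13.5, 17.1 and 16.5 CPM in controls, a log2 fold change of -0.27 (SE 0.16, edgeR adjusted p = 0.601), and TNFSF13B had 0.43 (SE 0.69, edgeR adjusted p = 0.872). Receptors were better represented, with 14 of 18 tested, 7 positive and 7 negative (median 0.08). IL18R1, a chain of the IL-18 receptor, had 0.913, 0.874 and 0.791 CPM in controls and 2.08, 1.98 and 1.48 CPM with the FAP vector (log2 fold change 1.09, SE 0.48, edgeR adjusted p = 0.458). Few counts lie behind these values, at most 28 in any library for IL18R1 and at most 36 for TNFSF13B.

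Of 27 adaptors and kinases between receptors and IkB, 26 were tested, 15 with positive values (median 0.04). TRAF5, an adaptor of TNF family receptors, had 4.75, 5.35 and 5.22 CPM in controls and 7.66, 7.20 and 7.86 CPM in FAP libraries (0.56, SE 0.23, edgeR adjusted p = 0.424). BIRC2, a ubiquitin ligase of the TNF receptor complex, was at -0.26 (SE 0.12, edgeR adjusted p = 0.481). The kinase subunit genes CHUK, IKBKB and IKBKG, singled out after their values were seen, were at -0.24, 0.04 and 0.06. All 10 genes of IkB degradation were tested (median 0.10), FBXW11, a substrate receptor for phosphorylated IkB, being at 0.39 (SE 0.16, edgeR adjusted p = 0.407) and SKP1 at 0.16. FBXW11 rested on FAP replicate 3, at 93.7 CPM against 55.4 and 59.3 in the other FAP libraries.

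Other inhibitors of the pathway showed no called gene. Of 13 feedback and ubiquitin-editing genes 12 were tested, 10 with positive and 2 with negative values (median 0.20, against 0.00 for all genes). At an unadjusted p under 0.05, 3 were higher and 0 lower, against 4.61% and 5.30% of all genes tested. The list was chosen with earlier results of these data known, so nothing is read from this count. RNF11, a partner of A20, had 54.4, 60.0 and 56.5 CPM in controls and 76.9, 66.4 and 68.6 CPM in FAP libraries (0.30, SE 0.11, edgeR adjusted p = 0.336). ITCH, a ubiquitin ligase of the same complex, was also at 0.30 (SE 0.12, edgeR adjusted p = 0.405). Among other family members and nuclear cofactors 10 of 11 were tested (median -0.03), with the deacetylase gene HDAC3 at -0.16. The remaining family members, singled out after their values were seen, were REL at 0.02 (SE 0.20) and NFKBID at -0.07 (SE 0.32).

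Genes induced through NF-kB were mostly low or little changed in value. Of 35 targets 24 were tested, 8 positive and 16 negative (median -0.10, against 0.00 for all genes), and 0 were called. At an unadjusted p under 0.05, 1 was higher and 0 lower, against 4.61% and 5.30% of all genes tested. The groups were separated upward for 1 and downward for 1 of the 24, against 7.96% and 7.99% of all genes tested. The 11 that failed the filter reached at most 11 counts. Singled out after their values were seen, all the CXCL chemokine genes of the list and CCL20 were among them. TNFRSF9, the 4-1BB receptor gene, had 2.01, 3.17 and 2.85 CPM in controls and 5.43, 4.87 and 5.56 CPM in FAP libraries (0.94, SE 0.30, edgeR adjusted p = 0.280). LIF, a cytokine of the IL-6 family, was at 9.86, 8.08 and 7.52 CPM in controls and 7.66, 5.65 and 5.34 CPM in FAP libraries (-0.46, SE 0.23, edgeR adjusted p = 0.527).

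**Figure D5:**
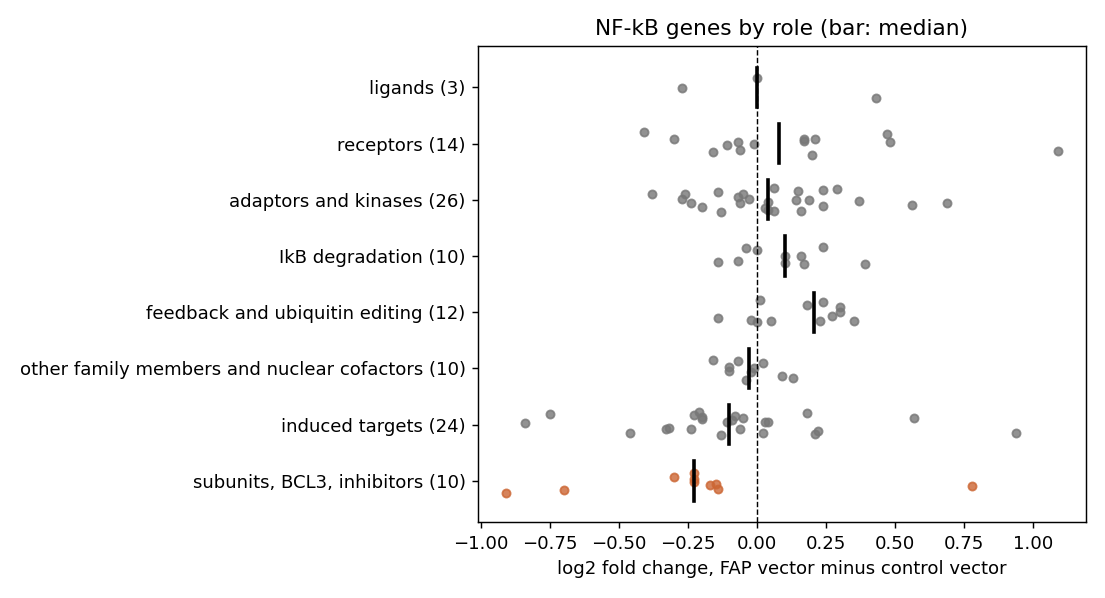
Log2 fold change of FAP minus control vector for the tested genes of 7 pathway lists (grey points) and for the 10 NF-kB genes (orange), with a bar at each median; the number of genes is in parentheses. Medians lie between -0.10 and 0.20 for the lists and at -0.23 for the 10 genes, of which BCL3 is the only point above 0.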

How the data were processed

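RNA of TC28a2 cells was sequenced as DRUG-seq libraries, a multiplexed RNA-seq method, per the labels' protocols. The authors deposited raw whole-number read counts per Entrez gene. HISAT2, featureCounts, Subread and GRCh38 are named in the submitters' processing notes. Settings, strand and treatment of amplification copies are not given in the sources consulted. Symbols and positions came from RefSeq's gene table (27745 of 28395 IDs matched), transcript lengths from GENCODE and promoters from RefSeq. Protein sequences were not used here.

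Counts of the 6 libraries were fitted with edgeR 4.0.16 in R 4.3.3 (TMM, filterByExpr with minimum count 10 and minimum total 15, two-sided quasi-likelihood F test, no covariate). Benjamini-Hochberg adjustment ran over 13373 genes, and a gene was called at an adjusted p under 0.05. SEs are the size of the log2 fold change over the square root of F. The common coefficient of biological variation was 11.8%. Since the labels do not say if replicates were separate cultures, p-values cover only the spread among these libraries, which may be technical. Alternatives used DESeq2 1.42.0, limma 3.58.1 and the settings in the closing section. The fit was tested on simulated data. Figures used matplotlib 3.10.9.

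The members, lists and alternatives were chosen with earlier results of these data known. Named genes are all members, each list's called genes or else its 2 smallest p, and the 3 genes most correlated with BCL3 and with NFKBIE. Other genes are marked where they were singled out afterwards, and 1 gene that the rule takes in is not reported here by name.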

Additional observations from a re-analysis of the deposited data

How the results depend on the processing

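Over all genes, 30 were called in the edgeR fit, 97 by DESeq2 (26 higher, 71 lower), 152 without the low-count filter, 19 with library totals in place of TMM, and 3 to 248 when each library was left out in turn, the extremes being without control replicate 3 and without FAP replicate 3. Of the 10 NF-kB genes 2 were called, against 0 by limma-voom, 1 with library totals (BCL3), and 0 to 3 with each library left out. BCL3 was called in 7 of 13 alternatives, NFKBIE in 6 and TNFAIP3 in 5. Of the pathway genes 0 were called, and 0 to 1 with each library left out. The log2 fold changes of 9 of the 10 genes kept their sign in all 13 alternatives, and that of NFKBIZ did so in 10 of the 12 that gave a value, the filter of 10 CPM in 3 libraries having removed it. Same-numbered libraries did not deviate together (correlations of -0.004, 0.020 and -0.004 across genes), so the numbers were not taken to pair samples. With a replicate block 44 genes and 3 of the 10 were called, TNFAIP3 being the addition. Control replicates 1 and 3 did not correlate best with their own number. Members at under 20 CPM, such as TNFAIP3 and NFKBIZ, rest on 40 to 218 counts per library, which limits their precision.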

Other observations

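Libraries of the same group differed in NFKBIA and NFKBIZ together. Control replicate 1 and FAP replicate 1, the libraries with the fewest counts (5736056 and 6275038), had the highest value of each gene in their group: 129.9 and 128.9 CPM for NFKBIA and 8.95 and 9.73 CPM for NFKBIZ. FAP replicate 3, with 13088109 counts, had the lowest of both, 91.6 and 2.96 CPM. FAP replicate 2, the library with the most counts (13839743), lay between at 109.7 and 5.29 CPM. In controls NFKBIZ was lower in replicate 2 (4.37 CPM, 9434553 counts in all) than in replicate 3 (6.01 CPM, 12446373 counts in all). TNFAIP3 (19.0 and 11.65 CPM), BCL3 (14.1 and 26.0 CPM) and NFKBIB (70.5 and 54.6 CPM) were also highest in replicate 1 of each group. NFKB1, NFKB2 and NFKBIE were highest in control replicate 1 (39.8, 36.4 and 35.4 CPM) but lowest in FAP replicate 1 (29.8, 23.3 and 18.0 CPM). RELA was highest in control replicate 1 and FAP replicate 2, and RELB in control replicate 2 and FAP replicate 1. The share of all genes that were highest in replicate 1 of each group was not counted, so nothing is read from this pattern. The part of library depth in these values was not tested.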
